A study of Mus musculus with 2 samples.

Results

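The genes described here are the claudins and the other tight junction genes measured in the kidney of newborn mice. They were taken by symbol alone. All protein-coding genes named Cldn followed by a number and no further letter were used, together with 23 named partners. The partners were the zonula occludens scaffolds and cingulins, the MARVEL proteins, the angulins, the junctional immunoglobulin proteins, and the Crumbs and Par polarity complexes. That gave 46 genes, 23 claudins and 23 others, of 43346 Ensembl genes and 21474 named protein-coding genes in the tables. The rule uses no measured value, but it was chosen with earlier results of these data known.

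Total RNA-seq was done on kidneys of B6NCrl mice on postnatal day 0, with no treatment and no genotype in the labels. Each library held both kidneys of a single pup, and both pups came from 1 mother. All samples form 1 group of n = 2 littermates, the labels do not give the pups' sex, and the spread between the pups leaves out differences between litters. With no groups to compare there is no p-value, and the comparisons are between genes and transcripts within the tissue, set against the spread between the pups. In whole kidney, fewer cells of a type and less RNA per cell cannot be told apart.

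Tight junctions ring the apical end of epithelial and endothelial cells. Claudins span the membrane with 4 helices and meet claudins of the next cell, so that the set a tubule segment makes decides whether its wall is tight or lets cations, anions or water pass between cells. Most claudins end in a short motif that binds the PDZ domains of the zonula occludens scaffolds, and the Crumbs and Par complexes place the junction along the cell. In the adult kidney the proximal tubule is leaky, the thick ascending limb passes calcium and magnesium between its cells, and the collecting duct is tight.

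The transcripts that differ in what their claudin does are shown first, because the levels further on turn on them. Cldn10 on chromosome 14 (chr14:118787908-118875489, plus strand, GRCm38) has a pair of alternative first exons whose start sites lie 66824 bases apart. The upstream exon gives claudin-10a, known as an anion pore of the proximal tubule, and the downstream exon gives claudin-10b, known as a cation pore of the thick ascending limb. The first exon holds most of the first extracellular loop, which lines the pore. The coding parts of these exons, from GENCODE M21 transcripts of GRCm38, are printed 5′ to 3′ with every codon for lysine or arginine in capitals. They lie at chr14:118788157-118788370 and chr14:118854990-118855209.
Cldn10a: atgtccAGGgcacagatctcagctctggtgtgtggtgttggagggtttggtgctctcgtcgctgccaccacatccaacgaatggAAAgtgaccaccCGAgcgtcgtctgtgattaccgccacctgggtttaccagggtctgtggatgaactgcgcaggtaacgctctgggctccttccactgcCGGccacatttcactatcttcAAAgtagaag
Cldn10b: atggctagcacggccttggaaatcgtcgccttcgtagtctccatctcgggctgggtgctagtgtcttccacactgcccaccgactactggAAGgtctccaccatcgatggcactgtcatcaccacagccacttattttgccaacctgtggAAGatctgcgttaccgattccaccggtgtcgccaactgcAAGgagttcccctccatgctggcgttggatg
The upstream exon has 5 codons for basic and 2 for acidic residues, and the downstream exon has 3 basic and 6 acidic. Of 246 columns in the alignment of the exons 138 (56.1%) were identical, while the remaining 473 coding bases are the same in both transcripts.

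The other sequences that matter are the ends of the coding regions, where the PDZ-binding motif lies. Of the 23 claudins, 13 end in codons for tyrosine and valine, against 49 of 21667 protein-coding genes (0.226%) and 0 of the 23 other members. Among the 16 claudins detected in this kidney 11 have that end. The members were scored on their leading complete transcript, or on the longest coding region where none was counted. All protein-coding genes, the claudins among them, were scored on the longest coding region, so the shares were not taken alike. For Cldn18 the choice of transcript rested on 4 counts in pup 1 and 0 in pup 2. Only that end was scored, and binding to PDZ domains was not. The last 8 codons and the stop codon of the leading transcripts are printed with the final 2 coding codons in capitals. The 4 claudins of the distal tubule and collecting duct come first, and then 3 without the tyrosine and valine end. Their places are chr11:69967691-69967717 for Cldn7, chr16:88562358-88562384 on the minus strand for Cldn8, chr5:134987078-134987104 for Cldn3, chr5:134946113-134946139 on the minus strand for Cldn4, chr3:31163282-31163308 for Cldn11, chr5:5507691-5507717 on the minus strand for Cldn12 and chr16:26482625-26482651 for Cldn16.
Cldn7: tccaattcctccaaggaaTACGTGtga
Cldn8: atatactccaaaagtcagTATGTGtag
Cldn3: gcctacgaccgcaaggacTACGTCtga
Cldn4: tctgtccccgccagcaacTATGTGtaa
Cldn11: acgcatgccaagagtgccCATGTCtaa
Cldn12: attccagtagtctcacacAGCACTtaa
Cldn16: atgtatgctgtagacaccAGAGTAtaa
The first 4 end in a tyrosine codon and a valine codon, in differing spellings. Cldn11 and Cldn16 keep the final valine codon behind another residue, and Cldn12 keeps neither. Cldn19 and Cldn23 are the other detected claudins whose leading transcript lacks the tyrosine and valine end.

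Of the 46 genes, 39 (84.8%) reached 1 TPM in each pup, where TPM is a transcript level corrected for length and for the total of the library. The background is 61.5% of all protein-coding genes at that level. All 23 partner genes were detected, and all 7 undetected genes were claudins. The 46 genes together held 1768 TPM in pup 1 and 1660 TPM in pup 2, or 0.177% and 0.166% of all TPM, and claudins held 1195 and 1132 TPM of that. The median of the detected members was 28.04 TPM in pup 1 and 24.96 TPM in pup 2, against 18.3 and 17.3 TPM over all detected protein-coding genes. The plot of levels by gene shows the detected members reported here.

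**Figure D1:**
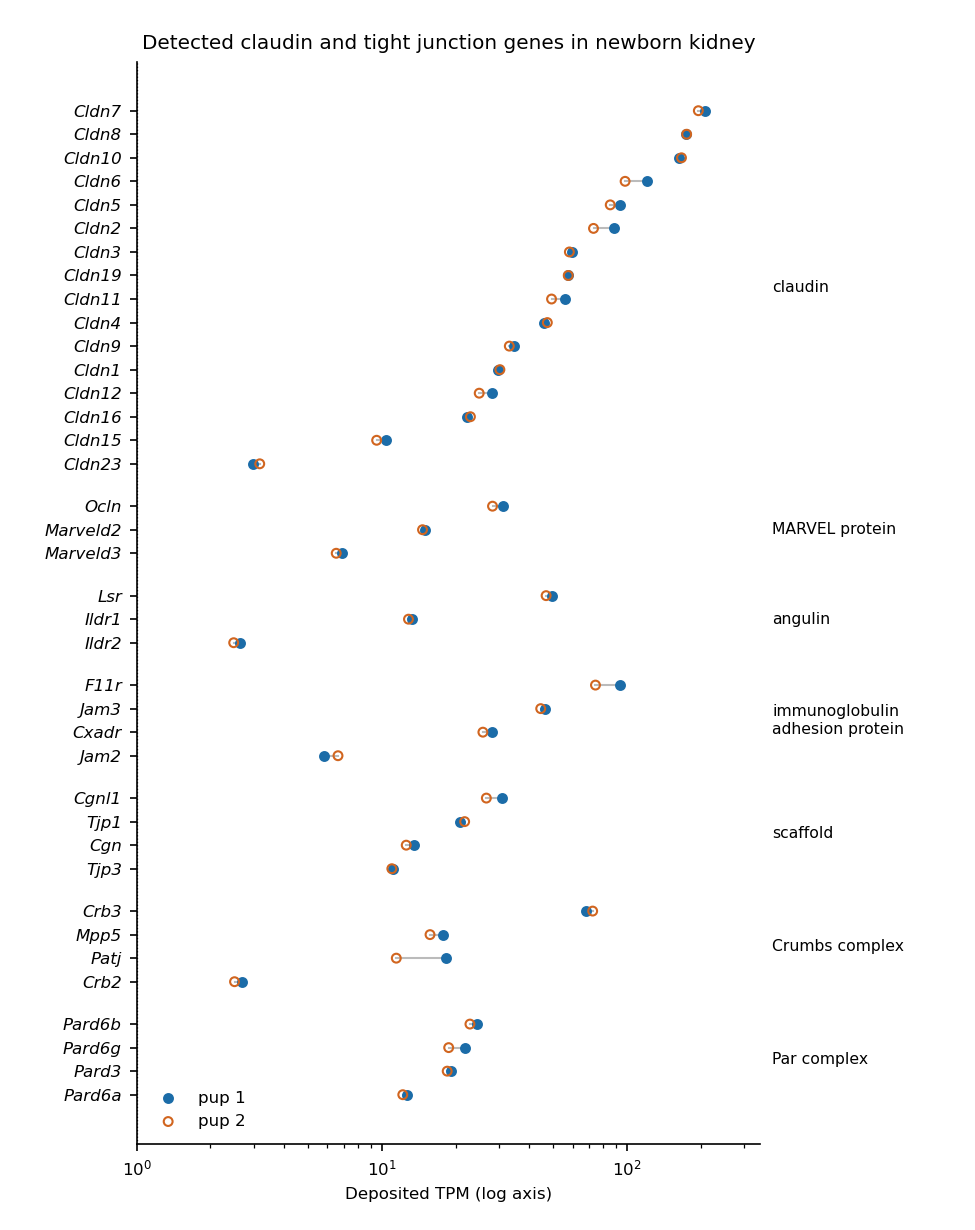
Deposited TPM of 38 detected members in pup 1 and pup 2 on a log axis, grouped by the role of the gene. The pups' points nearly coincide for most genes, and the levels run from Cldn7 at 208 and 195 TPM to Ildr2 at 2.63 and 2.49 TPM.

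The libraries held 41584961 and 48823952 expected counts, so that a count of 0 allows 0.0721 and 0.0614 CPM (counts scaled to the library total, with no account of length), which covers counting error only. Counts of the libraries differed by more than sampling noise (chi-square 12.4 times its degrees of freedom over 19640 genes), so they were kept as separate samples. The tissue label was checked against marker genes. All fixed markers of proximal tubule, thick ascending limb, collecting duct principal cell, podocyte, endothelium and nephron progenitor were detected, and 1 of 2 of distal convoluted tubule. None of 3 adrenal cortex markers and none of 3 lung or stomach markers were detected, with Cyp11b2 listed at 0 in both pups. Of the liver markers all 3 were detected, with Ttr at 69.2 and 76.2 TPM and Alb at 5.65 and 2.42 TPM, of the gut markers 1 of 3, and of the neuron and myelin markers 3 of 4.

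Claudins of the distal tubule and collecting duct were the most abundant group. Cldn7, a claudin of the distal nephron and collecting duct (chr11:69964779-69967885), was at 208 TPM in pup 1 and 195 TPM in pup 2, a mean of 202 ± 9.14 TPM (here and below SD over n = 2), above 96.6% of protein-coding genes. Cldn8, which pairs with claudin-4 in the paracellular chloride path of the collecting duct (chr16:88560828-88563183), was at 173 and 175 TPM. Both pups placed Cldn7 above Cldn8 in TPM, by 1.16 ± 0.0603 times, and the order was the opposite in CPM. The sealing claudin Cldn3 was at 59.7 and 58.2 TPM. Cldn4 was at 46.0 and 47.3 TPM. Cldn3 lay above Cldn4 in TPM in both pups by 1.26 ± 0.0471 times, again with the opposite order in CPM, and Cldn4 reached 0.268 ± 0.00343 of the TPM of Cldn8. These 4 genes made up 40.8% of claudin TPM in pup 1 and 42.04% in pup 2.

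**Figure D2:**
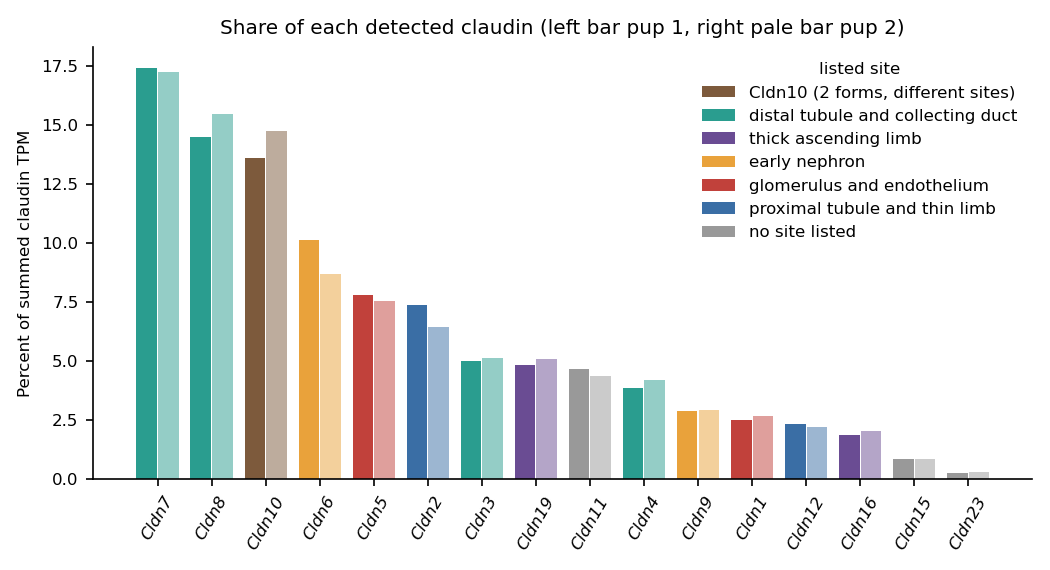
Share of each detected claudin in the summed claudin TPM, in percent, with the left bar of each pair for pup 1 and the right bar for pup 2. Colours give the kidney site listed here for each claudin, where there is one, with Cldn10 in a colour of its own. Cldn7, Cldn8, Cldn10 and Cldn6 together hold 55.7% in pup 1 and 56.1% in pup 2.

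Cldn10 was the third claudin, at 162 TPM in pup 1 and 167 TPM in pup 2. The form that starts at the upstream exon, Cldn10a, made 69.4% and 67.4% of it, which is 113 and 112 TPM. The form that starts at the downstream exon, Cldn10b, made 30.5% and 32.6%, or 49.6 and 54.4 TPM. Cldn10a therefore stood 2.17 ± 0.145 times as high as Cldn10b, with no overlap between the pups' values or between the deposited credibility intervals, whose level is not stated in the files. The transcript estimate of the proximal tubule form was above that of the thick ascending limb form in both pups.

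The leaky proximal tubule is known for Cldn2, a cation and water pore. Cldn2 (chrX:139800828-139811386) was at 88.1 TPM in pup 1 and 73.0 TPM in pup 2, or 80.6 ± 10.7 TPM. Cldn12, a claudin tied to calcium passage in that segment, was at 28.0 and 24.96 TPM. Cldn17, an anion pore, was listed at 0.060 and 0.15 TPM from 2 and 6 counts, close to the floor of 3 counts. In total Cldn10 stood 2.06 ± 0.312 times above Cldn2 in TPM, with the order reversed in CPM. Cldn2, Cldn12 and Cldn17 held 9.73% and 8.67% of claudin TPM. With Cldn10a counted among them, a regrouping chosen after the transcript shares were seen, the proximal share was 19.2% and 18.6%.

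In the thick ascending limb claudin-16 and claudin-19 form the cation pore through which calcium and magnesium are recovered, and loss of either in people causes magnesium wasting with calcium deposits in the kidney. Cldn19 (chr4:119255414-119262438) was at 57.6 TPM in each pup. Cldn16 (chr16:26463135-26482765) was at 22.2 and 23.0 TPM. Cldn16 thus reached 0.392 ± 0.00987 of the TPM of Cldn19, the same order in both pups. Cldn14, which blocks this pore when blood calcium is high, was at 0.61 and 0.75 TPM from 21 and 32 counts, 0.0301 ± 0.00363 of the TPM of Cldn16. With Cldn10 as a whole the claudins listed for this segment held 20.3% and 21.9% of claudin TPM, and without Cldn10a 10.9% and 11.99%. The thick ascending limb markers Umod and Slc12a1 were at 107 ± 3.18 TPM and 179 ± 3.08 TPM.

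Cldn6 and Cldn9 are known as claudins of the fetal and newborn kidney that are low in the adult. Cldn6 (chr17:23679249-23682446) was at 121 TPM in pup 1 and 98.2 TPM in pup 2, next among the claudins after Cldn10. Cldn9 (chr17:23682584-23684026) was at 34.6 and 33.1 TPM. The genes converge, with 137 bases between their ends, and Cldn6 stood 3.23 ± 0.375 times above Cldn9 in TPM. Cldn13, a rodent claudin named beside them in newborn mouse tubules, was listed at 0.070 and 0.11 TPM from 2 and 4 counts, which this depth does not tell apart from the floor. The nephron progenitor markers Six2 and Cited1 were at 12.2 ± 4.17 TPM and 97.4 ± 2.60 TPM.

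Cldn5, the main claudin of endothelium, was at 93.2 TPM in pup 1 and 85.4 TPM in pup 2, and its range overlapped that of Cldn2. Of the endothelial markers Emcn was at 96.8 ± 2.92 TPM, while Pecam1 at 44.4 ± 1.48 TPM and Cdh5 at 27.4 ± 0.622 TPM were below Cldn5 in both pups. Cldn1, known from the parietal cells of Bowman's capsule, was at 29.7 and 30.3 TPM. It stood 1.33 ± 0.0126 times above its neighbour Cldn16, whose gene starts 91.3 kb away on chromosome 16.

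Claudins with no kidney site in the list used here made up 5.86% and 5.55% of claudin TPM, most of it from Cldn11. A missing entry in that list does not mean that the claudin has no place in the nephron. The shares given by segment leave these claudins out. Cldn11, which seals myelin, the testis barrier and the inner ear, was at 55.7 TPM in pup 1 and 49.2 TPM in pup 2. The myelin gene Mbp was lower in the same libraries, at 6.41 and 6.46 TPM. Cldn15, a cation pore best known from the gut, was at 10.4 and 9.53 TPM. Cldn23 was the lowest detected claudin, at 2.98 and 3.18 TPM. The gap between Cldn23 and the next claudin, the undetected Cldn14, was wider than the spread of either.

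The 7 undetected claudins lay between 0 and 0.75 TPM. Besides Cldn14, Cldn17 and Cldn13 they were Cldn22, Cldn20, Cldn18 and Cldn24. Cldn22 was listed at 0.57 and 0.58 TPM from 15 and 19 counts, but 44.7% of its 50-base windows also occur in Cldn24 and all of them lie opposite transcripts of Wwc2, and no source used here says whether counting used strand, so its reads cannot be assigned with certainty. Cldn24 had 0 counts in both pups, which allows up to 0.179 and 0.146 TPM by counting error alone. Of its windows 68.9% also occur in Cldn22 and 68.9% opposite Wwc2, so these are not firm upper limits. Cldn18, the claudin of lung and stomach epithelium, had 4 counts in pup 1 and 0 in pup 2, beside lung and stomach markers that were all below 1 TPM.

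The MARVEL proteins, which cross the membrane 4 times like claudins, were led by occludin. Ocln was at 31.3 TPM in pup 1 and 28.3 TPM in pup 2. Marveld2, or tricellulin, which seals the points where 3 cells meet, was at 15.0 and 14.7 TPM, and Ocln stood 2.01 ± 0.111 times above it. Marveld3 was at 6.88 and 6.52 TPM, and Marveld2 stood 2.21 ± 0.0482 times above it. The order was the same in both pups. Ocln and Marveld2 are neighbours on chromosome 13, on the same strand and 43.2 kb apart.

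Angulins bring tricellulin to those corners. Lsr, or angulin-1, was at 49.6 TPM in pup 1 and 46.8 TPM in pup 2. Ildr1, or angulin-2, was at 13.3 and 12.9 TPM, and Ildr2 was at 2.63 and 2.49 TPM, the lowest of the detected members. Lsr stood 3.68 ± 0.0607 times above Ildr1 in TPM, and Ildr1 5.11 ± 0.0733 times above Ildr2. Of the windows of Lsr 31.5% also occur on the opposite strand in Gm4673, so part of its count is uncertain.

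Among the junctional immunoglobulin proteins F11r, or JAM-A, an epithelial and endothelial adhesion protein, was highest at 93.6 TPM in pup 1 and 74.3 TPM in pup 2. Jam3, or JAM-C, was at 46.3 and 44.5 TPM, with 29.3% of its windows also found on the opposite strand in Gm48796. Cxadr, the coxsackievirus and adenovirus receptor, was at 28.2 and 25.8 TPM. Jam2, or JAM-B, was lowest at 5.83 and 6.63 TPM. F11r stood 1.85 ± 0.247 times above Jam3 and 3.10 ± 0.318 times above Cxadr in TPM. Jam2 reached 0.137 ± 0.0165 of the TPM of Jam3.

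The scaffolds that tie claudins to actin were within 2.61-fold of each other by mean TPM. Cgnl1, or paracingulin, was highest at 31.0 TPM in pup 1 and 26.7 TPM in pup 2. Its relative Cgn, or cingulin, was at 13.5 and 12.6 TPM, 0.454 ± 0.0250 of it, and 17.2% of the windows of Cgn also occur in BC021767. Of the zonula occludens genes, Tjp1 was at 20.9 and 21.8 TPM and Tjp3 at 11.1 and 10.99 TPM. Both pups' values of Tjp1 lay above both of Tjp3.

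The Crumbs complex marks the apical membrane above the junction. Crb3, its short epithelial transmembrane protein, was at 67.8 TPM in pup 1 and 72.4 TPM in pup 2. Crb2, a large relative known from podocytes, was at 2.68 and 2.51 TPM, so that Crb3 stood 27.1 ± 2.52 times above it. Mpp5, or Pals1, the adaptor that binds Crb3, was at 17.7 and 15.7 TPM. Patj, which binds Mpp5, was at 18.3 and 11.5 TPM, the widest ratio between the pups of any detected member in TPM. Patj and Mpp5 were the only pair of the 26 compared whose ranges overlapped, at a ratio of 1.03 in pup 1 and 0.729 in pup 2.

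For Patj the counts differed less than the TPM. Its counts were 2073 in pup 1 and 2187 in pup 2, and on scaled CPM its log2 ratio of pup 2 over pup 1 was -0.13, against -0.68 in TPM. The effective length assigned to the gene was 3817 bases in pup 1 and 5231 bases in pup 2. The long coding transcript Patj-202 held 37.9% of Patj in pup 1 and 63.1% in pup 2, at nearly the same TPM of 6.94 and 7.23. The short non-coding Patj-210 held 15.6% in pup 1 and 1.47% in pup 2.

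Of the Par complex, Pard3 is the scaffold and the Pard6 proteins carry the atypical protein kinase C. Pard6b was highest at 24.4 TPM in pup 1 and 22.9 TPM in pup 2, followed by Pard6g at 21.8 and 18.7 TPM. Pard3 was at 19.2 and 18.5 TPM and Pard6a at 12.7 and 12.2 TPM. Pard6b stood 1.17 ± 0.0709 times above Pard6g, and Pard6a reached 0.526 ± 0.00854 of Pard6b in TPM. Pard3 reached 0.797 ± 0.0154 of Pard6b in TPM, with the order reversed in CPM. The 4 genes lay within 1.90-fold of each other by mean TPM.

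In the order of all 39 detected genes by mean TPM, 19 of the 38 steps from one gene to the next were wider than the spread, in that both pups' values of the higher gene lay above both of the lower, and 19 were not. Among claudins alone 14 of 15 steps were separate, the exception being Cldn5 and Cldn2. Of the 26 listed gene pairs, 25 were separate. They include Cldn22 over Cldn24, where the reads of Cldn22 cannot be assigned with certainty. No such share was taken over other genes, so these counts describe only the members. The rule also leaves out counting error. In pup 2 the counting limits were 55.9 to 60.5 TPM for Cldn3 and 55.4 to 59.8 TPM for Cldn19, a step counted as separate. The pairs farthest apart with both genes detected were Crb3 over Crb2 and Jam3 over Jam2. The plot of pair ratios shows both pups' values on a log2 axis.

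**Figure D3:**
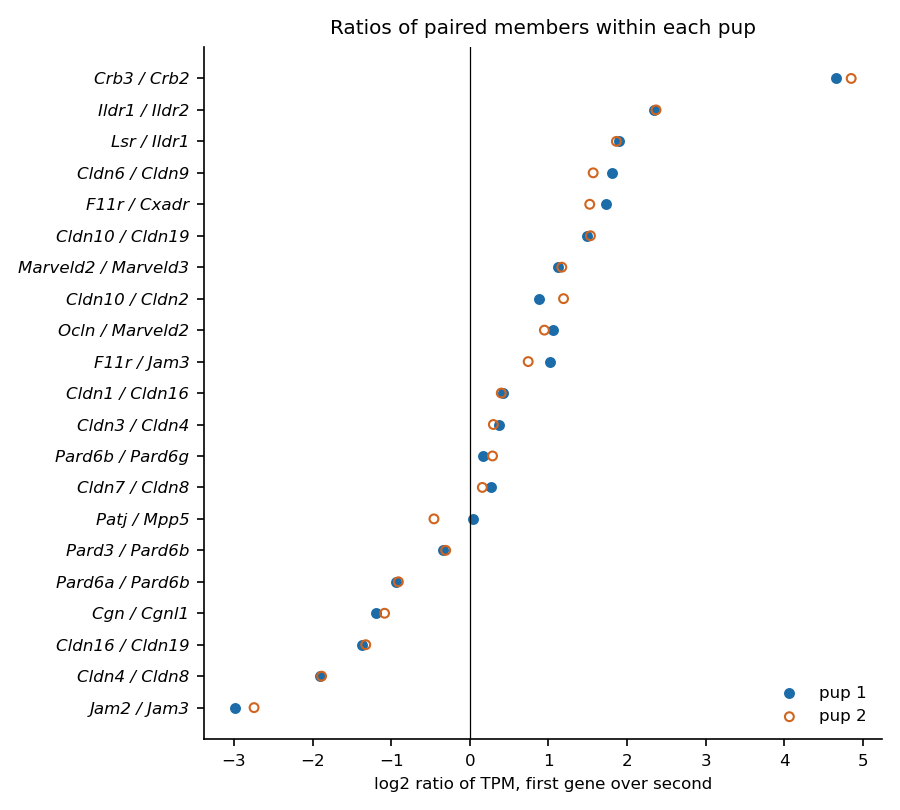
log2 ratio of TPM for 21 of the listed pairs with both genes detected, 1 point per pup, with the line at 0 marking equal levels. Points of the pups lie close together except for Patj and Mpp5, where they fall on opposite sides of 0.

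Between the littermates 0 of the 39 members with at least 50 counts in a pup differed past 2-fold in scaled CPM, beside 0.397% of 13860 protein-coding genes so tested. Past 1.5-fold there were also 0 members, beside 1.88% of all genes. The median absolute log2 ratio was 0.080 over members and 0.093 over all genes. Over the 11260 tested genes in the TPM range of the detected members it was 0.085, nearer to that of the members. Of those genes 26 were past 2-fold and 99 past 1.5-fold. The widest member was Jam2, with 462 counts in pup 1 and 645 in pup 2, at a log2 ratio of 0.27. Of the members 23 were higher and 16 lower in pup 2, where 49.2% of all genes were lower. That split followed the scaling, with 20 lower under library totals and 30 lower on deposited TPM, on which 70.3% of all genes were lower with a median log2 ratio of -0.087. No direction between the pups is therefore given for these genes as a group.

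**Figure D4:**
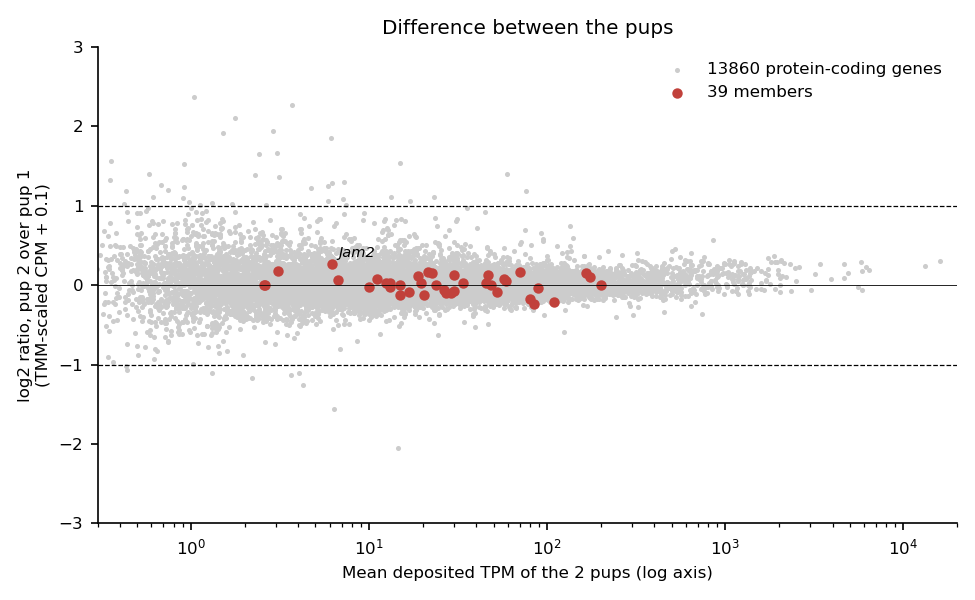
log2 ratio of pup 2 over pup 1 in scaled CPM against mean deposited TPM on a log axis, for members in colour over 13860 protein-coding genes in grey, of which 39 lie outside the plotted limits. All 39 members lie inside the lines at 2-fold, and Jam2 is the farthest from 0.

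Transcript shares were taken for 28 members with known forms, 26 of them detected. All 26 had the same leading transcript in both pups, and in 22 no transcript's share moved by 10 points or more. In 8 the leading form held at least 90% in both pups. In 6 (Crb3, Ocln, Cgnl1, Pard3, Patj and Marveld3) it held under 50% in a pup. Outside that set the leader of Pard6a changed, with Pard6a-201 at 57.4% and 44.5%. The plot of transcript shares shows selected genes.

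**Figure D5:**
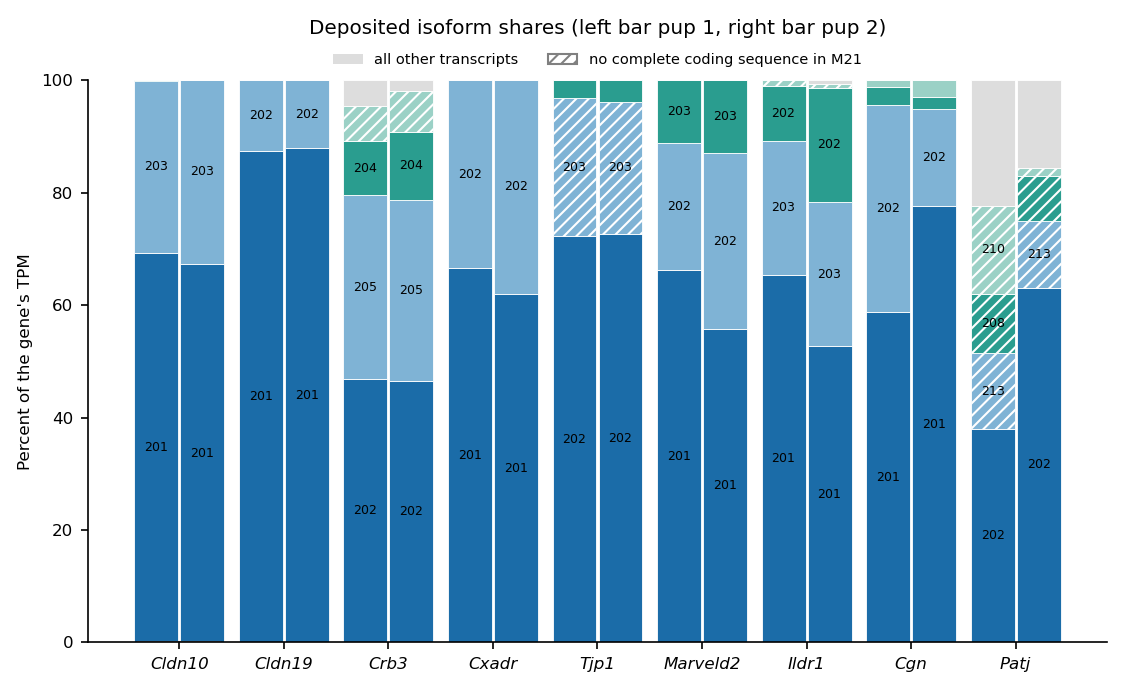
Percent of gene TPM held by each transcript in pup 1 and pup 2, as stacked bars for members with several transcripts. Cldn10, Cldn19, Crb3 and Tjp1 keep nearly the same split in both pups, while Patj and Cgn differ.

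Several of these forms change the end that faces the PDZ scaffolds. The last 8 codons and the stop codon are printed for 3 such genes, with the final 2 coding codons in capitals. The choice of form decides which end is made. They lie on the plus strand at chr4:119259739-119259765 and chr4:119258944-119258970 for Cldn19, chr17:57065270-57065296 and chr17:57065657-57065683 for Crb3, and chr16:78336426-78336452 and chr16:78359226-78359252 for Cxadr.
Cldn19-201: tcggtcaagggccccctgGGTGTGtaa
Cldn19-202: tcaactgctgccagagagTACGTCtga
Crb3-202: ctgcccccggaggagcggCTCATCtga
Crb3-205: ccagtgcggggctgcctgCCCATCtag
Cxadr-201: cagagcaaggacgggtctATAGTAtag
Cxadr-202: aagaccgatggcattacaGTGGTAtaa
Of the Cldn19 forms only Cldn19-202 ends in codons for tyrosine and valine, and it held 12.5% and 12.1% of the gene, against 87.5% and 88.0% for Cldn19-201. The Cldn19-201 form stood 7.14 ± 0.219 times higher, so most Cldn19 transcript carried the end with glycine and valine codons. The shared part of the coding region is 626 bases, with 46 bases of its own in Cldn19-201 and 7 in Cldn19-202.

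Crb3 has one end that binds Pals1 and a second one, known as Crb3b, that was described at cilia and spindles. The 3 transcripts that end as Crb3-202 does, the Pals1-binding end, held 61.0% and 60.6% of the gene. The transcript with the other end, Crb3-205, held 32.7% and 32.3%. Taken singly Crb3-202 stood 1.44 ± 0.00778 times above Crb3-205. In Cxadr the form Cxadr-201 held 66.6% and 62.1% and Cxadr-202 held 33.4% and 37.9%, a ratio of 1.82 ± 0.255. Both Cxadr ends close on a valine codon after a different residue.

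Tjp1 has an exon called alpha, whose presence in ZO-1 marks most epithelia and whose absence was described in endothelium and podocytes. It is shown with its 11 serine codons, of 80 in all, in capitals, because transcripts with it dominated this kidney. The exon lies at chr7:65314093-65314332 on the minus strand.
Tjp1 alpha exon: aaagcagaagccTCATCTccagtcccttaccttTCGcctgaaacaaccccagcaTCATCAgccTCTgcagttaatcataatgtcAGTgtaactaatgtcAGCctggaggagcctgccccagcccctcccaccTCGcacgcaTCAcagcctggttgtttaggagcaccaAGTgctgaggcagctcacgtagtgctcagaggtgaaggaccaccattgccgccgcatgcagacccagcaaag
The transcript with the exon, Tjp1-202, held 72.3% and 72.7% of the gene, at 15.1 and 15.8 TPM. The transcript without it, Tjp1-201, held 3.14% and 3.83%, so that Tjp1-202 stood 20.96 ± 2.69 times higher. These transcripts differ at other exons too, so the ratio is not that of the alpha exon alone. A short non-coding transcript, Tjp1-203, held 24.6% and 23.5%.

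Forms without a complete coding region are part of the TPM of a gene and took a sizeable share of some members. In 6 detected genes (Cldn7, F11r, Tjp1, Pard3, Patj and Jam2) transcripts with a complete coding region held under 80% in both pups. In F11r the retained-intron form F11r-203 held 30.9% in each pup. The non-coding Jam2-203 held 38.9% and 39.7% of Jam2. In Cldn7 the short Cldn7-205, whose coding region is incomplete, held 21.6% and 21.2%, leaving 162 and 153 TPM for Cldn7-201. On complete transcripts alone Cldn8 thus lay above Cldn7 in both pups.

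The splits of some genes moved by 10 points or more between the pups. Cgn-201 held 58.8% in pup 1 and 77.6% in pup 2, Marveld2-201 66.2% and 55.7%, and Ildr1-201 65.4% and 52.7%, beside Patj-202 and Pard6a-201 described above. Cldn15-201, also outside the set, held 74.2% in pup 1 and 93.1% in pup 2. In Marveld3 both forms, which share 520 of 1155 and 1128 coding bases, were near equal, with Marveld3-201 at 1.05 ± 0.0391 times Marveld3-202 and overlapping credibility intervals.

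Genes that work beside the junction were taken from lists chosen with earlier results of these data known. Of 11 adherens junction genes all 11 were detected, led by Ctnnb1 (beta-catenin) at 290 ± 7.19 TPM, Ctnna1 at 146 ± 11.1 TPM and Jup at 99.9 ± 8.32 TPM, with Nectin4 lowest at 3.04 ± 0.0919 TPM. Of 12 polarity kinases and Scribble group genes 10 were detected, led by Cdc42 at 502 ± 40.9 TPM, Llgl2 at 47.9 ± 2.93 TPM and Lin7c at 46.9 ± 2.02 TPM. The lowest of these, Lin7a, was at 0.61 and 0.26 TPM and was the only gene on any of the 5 lists past 2-fold between the pups. All 13 plaque and signalling genes were detected, from Magi3 at 2.42 ± 0.177 TPM up to Amotl2 at 34.2 ± 1.24 TPM, Ybx3 at 45.7 ± 8.52 TPM and Arhgef2 at 47.1 ± 8.07 TPM.

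All 16 genes known to act on claudins were detected. Spint2, an inhibitor of membrane proteases, was at 360 and 376 TPM, and Epcam, which holds claudin-7 in the membrane, at 284 and 274 TPM. The lowest was the transcription factor Ovol2 at 1.24 ± 0.297 TPM. Of 19 genes related to claudins but outside the name rule 12 were detected, led by Emp3 at 114 ± 4.02 TPM, Cldnd1 at 83.3 ± 4.59 TPM and Pmp22 at 71.7 ± 4.72 TPM. Those at 0 in both pups belonged to the Cldn34 group, but Cldn34c1 of that group was detected, at 9.56 TPM in pup 1 and 11.2 TPM in pup 2.

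Of the 23 claudins 10 have a single exon, 6 of them detected, and 13 have several, 10 of them detected. Their coding regions run from 621 to 888 bases with a median of 660. Neighbours could be far apart in level. Cldn8 and Cldn17 lie 53.8 kb apart on chromosome 16 with no protein-coding gene between them, at 173 and 175 TPM against 0.060 and 0.15 TPM. Cldn4 and Cldn13 lie 29.6 kb apart on chromosome 5 with 1 protein-coding gene between them, at 46.0 and 47.3 TPM against 0.070 and 0.11 TPM. Cldn3 and Cldn4, 39.3 kb apart, were by contrast within 1.26-fold.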

How the data were processed

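Both kidneys of each of 2 newborn pups gave 1 total RNA library per pup. The authors deposited expected counts (estimated reads, not normalized), TPM and FPKM per gene and per transcript, and the percent of a gene's TPM in each transcript, per the file headers. The column set is that of RSEM. The text deposited with the libraries names mm10 and GENCODE M4 and states that each library was quantified alone from transcriptome alignments. The aligner, versions and counting strand were not found in the sources used here. A model divides reads that fit several genes or transcripts.

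Genes were matched by Ensembl identifier to GENCODE M21 of GRCm38, the same assembly, which gave symbols, coordinates and coding sequence. The genes and lists were chosen with earlier results of these data known. Detection was 1 TPM in both pups. Ratios between pups used CPM scaled by TMM factors (edgeR 4.0.16, R 4.3.3) plus 0.1, for genes with at least 50 counts in a pup, called at 2-fold. Expected counts were rounded for scaling. Pairs and neighbours in the order were separate when both values of one gene lay above both of the other. Detected members are given in both pups, and of other lists the 3 highest and the lowest, with Cldn34c1 added. A few genes so named are counted but not reported here. Shared sequence was searched in 50-base windows. With 1 group no test was run. Of the steps, only the 2-fold call between pups was tested on simulated data, scaled there by library totals and not by TMM factors. Alternatives were other scalings (DESeq2 1.42.0 size factors, library totals), thresholds, FPKM, posterior means, rescaled TPM and leaving out a pup. Python 3.11.15, pandas 2.3.3, NumPy 2.4.6 and Matplotlib 3.10.9 were used.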

Additional observations from a re-analysis of the deposited data

How the results depend on the processing

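The 39 detected members were 41, 39 and 36 at thresholds of 0.5, 2 and 5 TPM, and 39 with posterior means, with FPKM, with rescaled TPM and without either pup. No member passed 2-fold under any of the 8 alternatives, and Patj alone passed 1.5-fold, on deposited TPM. Separate pairs numbered 25 with posterior means and with FPKM and 24 with CPM. Rescaled over protein-coding genes other than mitochondrial ones, the summed TPM of the members was 2163.7 in place of 1714.1, since the same values are divided by a smaller total; it was 1691.8 with posterior means, and it ranged from 1660 to 1768.3 without replicate 1 or 2. In CPM, which ignore length, 4 log2 pair ratios changed sign: Cldn10 over Cldn2 at -0.075, Cldn3 over Cldn4 at -0.22, Cldn7 over Cldn8 at -0.92 and Pard3 over Pard6b at 0.055. Leading transcripts matched in 26 of 26 genes, also with posterior means, and in 24 of 24 at 5 TPM or more. Leaving out a pup gives no ratio between pups and no check of separate pairs or of matching transcripts. No paired analysis was possible because there is 1 group. Of the 7 undetected claudins 5 had at most 10 counts in each pup, so their levels are imprecise. The upper counting limits of 6 lay below 1 TPM in both pups, and that of Cldn14 was 0.927 TPM in pup 1 and 1.06 TPM in pup 2. These limits cover counting error only, not the sequence that Cldn22 and Cldn24 share.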
